A study of Mus musculus with 30 samples.

Results

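The livers of formerly obese mice that had been refed with high-fat diet (HFD) for 48 h (formerly obese-HFD, *n*=6) were compared with the livers of formerly obese mice kept on control diet (formerly obese, *n*=6), which together make up 12 of the 30 livers of the series. The samples were chosen by their labelled diet and not by any measured value, and the comparison covered the 22180 genes that a probe set of the array names alone. All 12 mice were male, wild-type C57BL6/J animals of 35 weeks that had first received the high-sucrose HFD (D12331, 58% of energy as fat) for 20 weeks and then the control diet (D12329, 10.5% of energy as fat) for 7 weeks, so that a history of obesity was common to both groups and the diet of the final 48 h differed. The refed mice had been fasted briefly before they received HFD again, and no source used here says whether the others were fasted at that time. The diets differ in fat, and the HFD is named high-sucrose, but the sugar content of the control diet is not given here. The shares of fat and of any change in sugar in a difference cannot be told apart. Whole-liver RNA had been read on Mouse Gene 2.0 ST arrays (Affymetrix), and levels are given as linear signal, which is 2 to the power of the deposited log2 value.

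The liver turns surplus sugar into fat through a fixed chain of enzymes: citrate is split by ATP citrate lyase (*Acly*), acetyl-CoA is carboxylated by acetyl-CoA carboxylase (*Acaca*), fatty acid synthase (*Fasn*) builds palmitate with NADPH from malic enzyme (*Me1*), and *Elovl6* and *Scd1* lengthen and desaturate the product. The transcription factors SREBP-1c (encoded by *Srebf1*), which responds to insulin, and ChREBP (encoded by *Mlxipl*), which responds to sugars, are known to drive these genes, and dietary fat, above all polyunsaturated fat, is known to lower them. SREBP-2 (*Srebf2*) drives cholesterol synthesis in a similar way when cell cholesterol is low.

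Albumin (*Alb*) had a signal of 5619 to 6392 in formerly obese-HFD livers and 6005 to 6343 in formerly obese livers, and the summed signal of 10 hepatocyte markers lay between 25598 and 29591 in formerly obese-HFD livers and between 26687 and 28868 in formerly obese livers. Formerly obese-HFD liver 6 stood apart from the others. It exceeded all other livers by more than 1 on the log2 scale at 175 of the 15512 probe sets with a single symbol and an average signal above 8, and lay below them by as much at 24, whereas no other liver did so at more than 15 and 7. Formerly obese-HFD livers also scattered more among themselves, with a median SD of 0.262 on the log2 scale against 0.219 in formerly obese livers (0.240 without liver 6). Calls that changed without liver 6 are given below.

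A probe set was taken as changed when limma on the 12 livers gave *P* below 0.01, the group averages differed by more than 1.2-fold and the larger average exceeded 8, together called the criteria. They were met by 257 single-symbol probe sets (1.09% of 23521), of which 76 were higher (0.323%) and 181 lower (0.770%) in formerly obese-HFD vs formerly obese livers. Among all 41345 probe sets 489 passed (1.18%), and 2469 (5.97%) had a limma *P* below 0.05. The lower genes reached further: of the single-symbol probe sets past the criteria 12 were lower by more than 2-fold and 1 was higher by as much. After adjustment over all probe sets, 10 (0.0242%) stayed below a false discovery rate (FDR) of 10%, of which 7 carry a single symbol (0.0298%): *Agxt* was higher (0.00425%), and *Scd1*, *Acaca*, *Me1*, *Lepr*, *Elovl6* and *Pklr* were lower (0.0255%). For the other named genes past the criteria the limma adjusted *P* lay between 0.129 and 0.678, so that they were changed by the criteria but not at the FDR, and exact permutation *P* values are two-sided. *Agxt* stayed below the FDR threshold in all 12 fits that each left out a liver, but the lower genes did not. *Scd1* passed in 5 of these fits, *Acaca* and *Lepr* in 3 each and *Me1*, *Elovl6* and *Pklr* in 2 each. Of the 6 lower genes none passed without formerly obese-HFD liver 4 or 5 or without formerly obese liver 3, 4, 5 or 6, between 1 and 2 passed without formerly obese-HFD liver 1, 3 or 6 or formerly obese liver 2, 4 passed without formerly obese-HFD liver 2 and all 6 passed without formerly obese liver 1. Without formerly obese-HFD liver 6, 354 single-symbol probe sets met the criteria (150 higher and 204 lower), of which 184 were among the 257. In RNA of whole liver, fewer cells of a type and less RNA per cell cannot be told apart.

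Genes of fatty acid and triglyceride synthesis fell after refeeding. Of 28 measured genes 11 were lower past the criteria and none was higher, against 1.17% lower and 0.490% higher among all single-symbol probe sets with an average above 8. The same shares, and 52.6% with a negative difference, are the background for the list members counted by the criteria or by sign below. The log2 difference was negative for 26 of the 28, with a median of -0.37 (-0.34 without liver 6) where the median of all single-symbol probe sets was 0.01. In 6 of the 28 the groups did not overlap (of all single-symbol probe sets 0.336% were lower and 0.170% higher without overlap). The deviation of each gene from its own average was taken in each liver. Its median over the 28 genes lay between -0.46 and 0.04 in formerly obese-HFD livers, with liver 6 lowest and liver 2 highest. In formerly obese livers this median deviation lay between 0.00 and 0.48.

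For *Fasn*, the fatty acid synthase gene, the signal was 302 to 1081 (median 563) in formerly obese-HFD livers, against 1097 to 1828 (median 1411) in formerly obese livers. Formerly obese-HFD liver 2 came close to the lowest formerly obese liver, the others lay far below, and the groups did not overlap. The log2 difference was -1.38 (SE 0.261, adjusted *P*=0.237, exact permutation *P*=0.00216, which is the smallest that 6 against 6 livers allow). *Acaca*, which commits acetyl-CoA to fatty acid synthesis, ranged from 129 to 235 (median 165) in formerly obese-HFD livers, against 317 to 595 (median 392) in formerly obese livers, again with no overlap, and was lower by a ratio of 0.409 (log2 -1.29, SE 0.179, exact permutation *P*=0.00216, adjusted *P*=0.0675). *Me1*, a source of NADPH, ranged from 333 to 885 (median 450) in formerly obese-HFD livers and from 1051 to 1838 (median 1405) in formerly obese livers. Every formerly obese-HFD liver was below every formerly obese liver, at a ratio of 0.355 (log2 -1.55, SE 0.216, exact permutation *P*=0.00216, adjusted *P*=0.0675). The neighbour of *Me1* on chromosome 9, *Rwdd2a*, was lower by 1.39 on the log2 scale (SE 0.314, exact permutation *P*=0.00649), with signals of 18.0 to 55.5 in formerly obese-HFD livers, against 42.5 to 139 in formerly obese livers.

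Among the enzymes that lengthen and desaturate fatty acids, *Elovl6* had a signal of 218 to 559 (median 387) in formerly obese-HFD livers, against 712 to 1611 (median 1116) in formerly obese livers. The groups were separate, and the ratio of averages was 0.330 (log2 -1.61, SE 0.237, exact permutation *P*=0.00216, adjusted *P*=0.0734). *Scd1*, the stearoyl-CoA desaturase, ranged from 1661 to 2565 (median 2222) in formerly obese-HFD livers, against 3439.5 to 3864 (median 3819) in formerly obese livers, so that it kept a high signal while all formerly obese-HFD livers lay below all formerly obese livers (log2 -0.81, SE 0.108, exact permutation *P*=0.00216, adjusted *P*=0.0675). *Acly* ranged from 273 to 566 (median 413) in formerly obese-HFD livers, against 495 to 1177 (median 722) in formerly obese livers, with 5 of 6 formerly obese-HFD livers below the whole of the other group (log2 -0.87, SE 0.231, exact permutation *P*=0.00649). *Pnpla3*, a lipid droplet protein whose gene follows the lipogenic programme, ranged from 14.7 to 30.9 (median 21.2) in formerly obese-HFD livers, against 29.4 to 108 (median 64.4) in formerly obese livers. Its groups met only at formerly obese liver 1, and it was lower by 1.47 on the log2 scale (SE 0.281, exact permutation *P*=0.00433, adjusted *P*=0.237).

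The remaining members past the criteria were less stable. *Acacb*, the carboxylase isoform whose product restrains mitochondrial fat import, was lower by 0.76 on the log2 scale (exact permutation *P*=0.0195) and passed in 5 of the 12 fits that each left out a liver, and not without formerly obese-HFD liver 6, where the difference was -0.60 (adjusted *P*=0.627). *Aacs*, which activates acetoacetate for lipid synthesis, was lower by 0.68 (exact permutation *P*=0.0152, passed in 3 of 12 such fits), and the elongase *Elovl5* by 0.52 (exact permutation *P*=0.00649, passed in 5 of 12). Of the genes of triglyceride assembly, *Dgat1* differed by -0.19, *Dgat2* by -0.20 and *Gpam* by -0.41 on the log2 scale, and none of these passed.

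**Figure D1:**
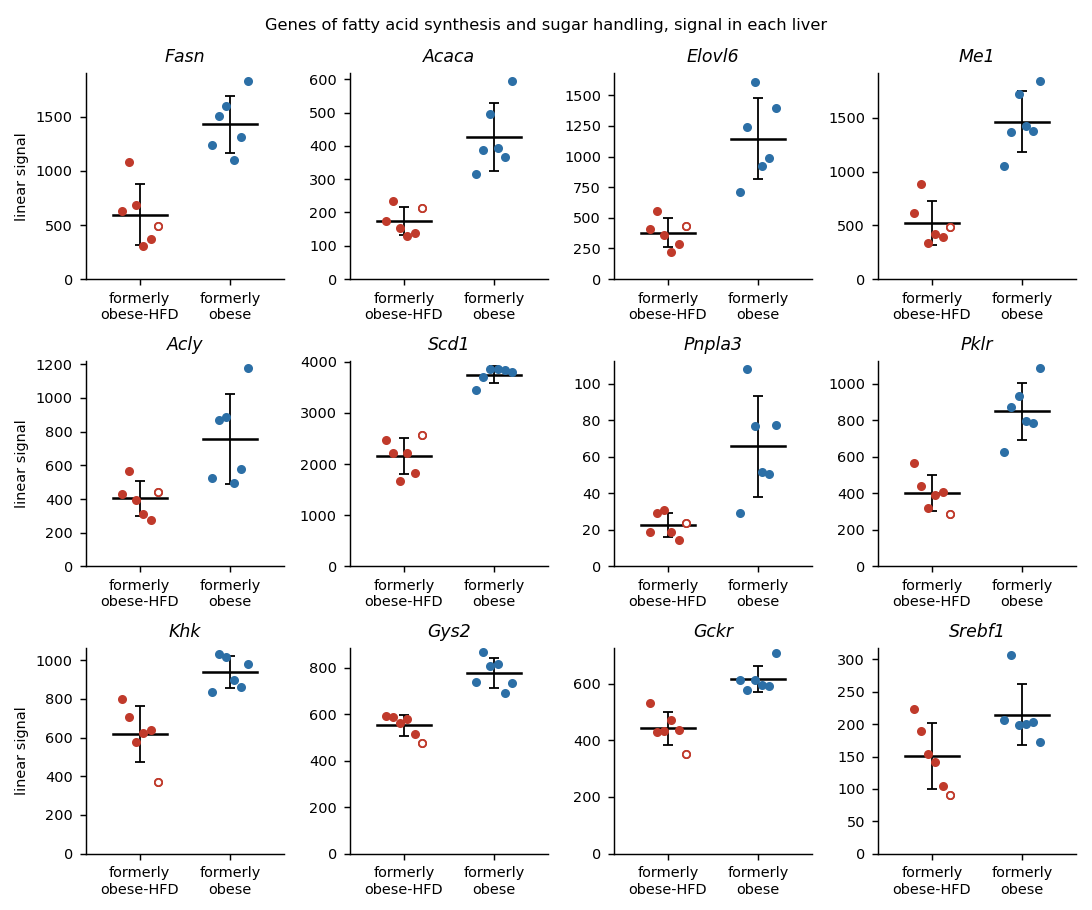
Linear signal of 12 genes of fatty acid synthesis and sugar handling in each liver (points; open points are formerly obese-HFD liver 6), with the mean (bar) and SD (whiskers) of 6 livers per group and axes that start at 0. The groups are separate for *Fasn*, *Acaca*, *Elovl6*, *Me1*, *Scd1*, *Pklr*, *Khk*, *Gys2* and *Gckr*, and overlap for *Acly*, *Pnpla3* and *Srebf1*.

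None of the transcription factors upstream of these enzymes passed at the RNA level in the 12 livers. *Srebf1* ranged from 91.2 to 224 (median 147) in formerly obese-HFD livers and from 173 to 307 (median 202) in formerly obese livers, a log2 difference of -0.55 that did not pass (SE 0.210, exact permutation *P*=0.0411). It met the criteria in 1 of the 12 fits with a liver left out, that without formerly obese-HFD liver 1, which had the highest *Srebf1* of its group. *Mlxipl*, which encodes ChREBP, ranged from 365 to 1003 (median 731) in formerly obese-HFD livers, against 743 to 825 (median 794) in formerly obese livers, with a log2 difference of -0.21 (exact permutation *P*=0.426, 95% confidence interval -0.60 to 0.18). In 5 of 6 formerly obese-HFD livers *Mlxipl* lay below all formerly obese livers, liver 3 lay above them, and without liver 6, the lowest, the log2 difference was -0.03. *Nr1h3*, which encodes the oxysterol receptor LXR-alpha, differed by 0.04 (exact permutation *P*=0.569).

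Among enzymes that act on sugars, *Pklr*, *Khk* and *Tkfc* were also lower, whereas *Slc2a2*, *Pfkfb3* and *Pfkl* differed by -0.25, -0.11 and 0.09 on the log2 scale and did not pass. *Pklr*, the liver pyruvate kinase and a classic ChREBP target, had a signal of 289 to 564 (median 401) in formerly obese-HFD livers, against 626 to 1088 (median 833) in formerly obese livers, with no overlap (log2 -1.09, SE 0.165, exact permutation *P*=0.00216, adjusted *P*=0.0734). *Khk*, which phosphorylates fructose, ranged from 369 to 799 (median 632) in formerly obese-HFD livers, against 836 to 1031 (median 941) in formerly obese livers. Liver 6 was the lowest, but all formerly obese-HFD livers were below the formerly obese ones (log2 -0.63, SE 0.156, exact permutation *P*=0.00216; -0.49 without liver 6). *Tkfc*, which phosphorylates the glyceraldehyde made from fructose and was named after its values were seen, ranged from 563 to 878 (median 689.5) in formerly obese-HFD livers, against 900.1 to 1242 (median 973) in formerly obese livers, also without overlap (log2 -0.58, SE 0.130, exact permutation *P*=0.00216).

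Of the 22 measured genes of glucose metabolism and insulin signalling 3 were lower past the criteria and none higher (1.17% and 0.490% of all single-symbol probe sets with an average above 8), 17 were negative and the median was -0.15. *Khk* is one of the 3. *Gys2*, the liver glycogen synthase, ranged from 477 to 594 (median 569.9) in formerly obese-HFD livers, against 693 to 866 (median 774) in formerly obese livers. *Gckr*, a regulatory protein of glucose metabolism in liver, ranged from 350.2 to 529.7 (median 435) in formerly obese-HFD livers, against 578 to 708 (median 603) in formerly obese livers. Both pairs of groups were separate, and the log2 differences were equal at -0.49 (*Gys2*, SE 0.0854, exact permutation *P*=0.00216; *Gckr*, SE 0.0988, exact permutation *P*=0.00216). Glycogen phosphorylase *Pygl* (log2 -0.44, exact permutation *P*=0.00216) had separate groups and the gluconeogenic *Fbp1* (log2 -0.23, exact permutation *P*=0.00433) groups that overlapped at 1 formerly obese-HFD liver, and neither passed. The gluconeogenic *Pck1* differed by 0.18 (exact permutation *P*=0.173) and *G6pc* by -0.38 (exact permutation *P*=0.422; -0.08 without liver 6).

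The promoters of the lower genes were searched because ChREBP is known to bind a pair of E-box-like motifs, the carbohydrate response element. RefSeq windows of 300 bases (250 before and 50 after a start site, GRCm38.p6) were found for 149 of the genes past the criteria that were lower. The letters CACGNG and CNCGTG with any 5 bases between them (N is any base), searched on both strands, occur in 0.0457% of all 32851 windows, and of the 195 windows of lower genes in a single one, that of *Pklr*, at 170 bases before the start. The simple E-box CACGTG, which can overlap it, occurs in 11.3% of the windows of lower genes, 7.46% of the 67 windows of higher genes and 7.15% of all windows. The letters TCACNCCAC of a sterol response element occur in 1.54% of the windows of lower genes and 1.24% of all windows, the CCAAT box in 40.0% and 37.4%, and a direct repeat of AGGTCA with any 4 bases between, as LXR binds, in none of the windows of lower genes and 0.0152% of all windows. Among the 46 named lower genes 41 had a window, and 5 hold the E-box CACGTG. Of these 5, *Khk* and *Rnf145* (an ubiquitin ligase of the endoplasmic reticulum, described below) had groups that did not overlap. *Rnf145* also has windows without the E-box. A match is a description of the letters, and no binding was measured. The 3 windows are shown with the match in capitals, *Pklr* at chr3:89136373-89136672, *Khk* at chr5:30921309-30921608 and *Rnf145* at chr11:44518706-44519005, all on the plus strand.
Pklr: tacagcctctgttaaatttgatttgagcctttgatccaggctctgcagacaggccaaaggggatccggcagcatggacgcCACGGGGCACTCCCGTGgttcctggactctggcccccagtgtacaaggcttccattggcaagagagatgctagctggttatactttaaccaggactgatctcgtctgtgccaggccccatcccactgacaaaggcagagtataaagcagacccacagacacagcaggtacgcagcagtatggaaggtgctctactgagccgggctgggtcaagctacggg
Khk: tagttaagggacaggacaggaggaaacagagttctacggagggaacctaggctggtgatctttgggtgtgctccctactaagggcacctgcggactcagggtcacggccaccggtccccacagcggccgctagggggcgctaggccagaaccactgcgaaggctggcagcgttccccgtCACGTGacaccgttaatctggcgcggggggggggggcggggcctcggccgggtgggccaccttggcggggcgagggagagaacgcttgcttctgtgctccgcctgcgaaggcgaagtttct
Rnf145: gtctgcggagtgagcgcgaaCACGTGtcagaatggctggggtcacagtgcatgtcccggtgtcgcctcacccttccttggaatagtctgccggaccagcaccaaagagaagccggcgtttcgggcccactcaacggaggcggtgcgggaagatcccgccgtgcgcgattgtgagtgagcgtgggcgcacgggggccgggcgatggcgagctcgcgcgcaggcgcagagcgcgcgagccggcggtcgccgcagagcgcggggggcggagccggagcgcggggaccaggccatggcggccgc

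Several lower genes outside the lists, named after their values were seen, encode enzymes that lie next to this chain. They were picked from the 181 lower probe sets and were not tested as a set. *Dlat*, a subunit of pyruvate dehydrogenase, ranged from 80.9 to 127 (median 90.7) in formerly obese-HFD livers, against 113 to 157 (median 144) in formerly obese livers (log2 -0.56, SE 0.123, exact permutation *P*=0.00649). *Pdhb*, a further subunit, was lower by 0.33 (exact permutation *P*=0.00433), the kinase *Pdk1*, which inhibits the complex, by 0.77 (exact permutation *P*=0.00866; -0.59 at its other probe set), and citrate synthase *Cs* by 0.43 (exact permutation *P*=0.00866). *Ugp2*, which makes the UDP-glucose for glycogen, ranged from 881 to 1098 (median 965) in formerly obese-HFD livers, against 1150.5 to 1695 (median 1397) in formerly obese livers, with no overlap (log2 -0.49, SE 0.108, exact permutation *P*=0.00216). *Gpd2*, a mitochondrial glycerol phosphate dehydrogenase, was lower by 0.53 (exact permutation *P*=0.00866, passed in 7 of 12 fits without a liver).

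A second set named in the same way handles ceramides and glycosphingolipids. *Cert1*, which carries ceramide to the Golgi, had a signal of 118 to 182 (median 163) in formerly obese-HFD livers and of 224 to 278 (median 247) in formerly obese livers. The groups were separate (log2 -0.66, SE 0.109, exact permutation *P*=0.00216, adjusted *P*=0.129). *Kdsr*, an enzyme of ceramide synthesis, was lower by 0.46 (exact permutation *P*=0.00433), *Ugcg*, which adds glucose to ceramide, by 0.52 (exact permutation *P*=0.0152, passed in 4 of 12 fits), and the lysosomal *Arsa*, *Galc* and *Gm2a* by 0.63, 0.47 and 0.44 (exact permutation *P* of 0.013, 0.013 and 0.00649). *Galc* passed in 6 of 12 fits and the others in all. These were picked from the 181 lower probe sets and were not tested as a set.

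Cholesterol genes lay the other way. Of 21 measured genes of cholesterol synthesis and uptake 17 were positive, with a median log2 difference of 0.25 (0.32 without liver 6), 9 were higher with limma *P* below 0.05 (2.66% of single-symbol probe sets with an average above 8) and none lower, but only *Msmo1* passed the criteria. *Msmo1*, a sterol C4 methyl oxidase, had a signal of 179.8 to 389 (median 269) in formerly obese-HFD livers, against 129 to 190.4 (median 146) in formerly obese livers. The groups met only at formerly obese-HFD liver 1 and formerly obese liver 3, and it was higher by 0.82 on the log2 scale (SE 0.195, exact permutation *P*=0.00433, adjusted *P*=0.453). *Hmgcs1*, which makes HMG-CoA, ranged from 380 to 1534 (median 772) in formerly obese-HFD livers, against 323 to 574 (median 456) in formerly obese livers, with 4 of 6 formerly obese-HFD livers above all formerly obese livers and a difference that did not pass (log2 0.79, exact permutation *P*=0.0519). *Lss*, *Cyp51* and *Fdft1* lay 0.63, 0.64 and 0.47 above (exact permutation *P* of 0.0346, 0.039 and 0.0346). *Srebf2* ranged from 62.4 to 86.3 (median 77.0) in formerly obese-HFD livers, against 52.7 to 69.5 (median 63.1) in formerly obese livers, with a log2 difference of 0.25 (exact permutation *P*=0.0346), and *Insig1*, which holds SREBPs in the endoplasmic reticulum, differed by 0.04 (exact permutation *P*=0.851). Formerly obese-HFD liver 2 had the highest median deviation of the list and liver 5 the lowest, within the range of the formerly obese livers.

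*Rnf145*, known from mouse liver as an oxysterol-responsive ubiquitin ligase that acts on sterol synthesis, ranged from 54.1 to 94.2 (median 76.8) in formerly obese-HFD livers, against 104 to 174 (median 135) in formerly obese livers. It was named after its values were seen, its groups were separate, and it was lower by 0.90 on the log2 scale (SE 0.157, exact permutation *P*=0.00216, adjusted *P*=0.154). Among 12 genes of cholesterol efflux and LXR targets *Pltp* alone passed. This phospholipid transfer protein ranged from 97.7 to 201 (median 122) in formerly obese-HFD livers, against 197 to 387 (median 241) in formerly obese livers, with 5 of 6 formerly obese-HFD livers below all formerly obese livers (log2 -0.98, SE 0.222, exact permutation *P*=0.00649). Its neighbour on chromosome 2, *Neurl2*, was also lower past the criteria (log2 -0.69, SE 0.196). Of 16 apolipoproteins and lipoprotein genes *Mttp*, which loads lipid onto apolipoprotein B, passed (log2 -0.33, exact permutation *P*=0.00866) in the fit on 12 livers and in 4 of 12 with a liver left out. *Tm6sf2*, which also acts in the export of lipid from the liver, was named after its values were seen. It ranged from 84.7 to 153 (median 146) in formerly obese-HFD livers, against 165 to 226 (median 214) in formerly obese livers, with no overlap (log2 -0.61, SE 0.144, exact permutation *P*=0.00216).

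Genes that burn fat differed little. Of 33 measured PPAR-alpha targets and genes of fat oxidation and ketogenesis 2 were lower past the criteria, none was higher, and the median was -0.06. *Cpt1a*, which admits fatty acids to mitochondria, ranged from 536 to 713 (median 570.4) in formerly obese-HFD livers and from 570.5 to 774 (median 654) in formerly obese livers (log2 -0.16, 95% confidence interval -0.37 to 0.06, exact permutation *P*=0.121), and *Pdk4* differed by 0.29 (exact permutation *P*=0.537; -0.02 without liver 6). The 2 that fell are acyl-CoA thioesterases of a gene cluster on chromosome 12. *Acot3* ranged from 10.4 to 29.1 (median 23.3) in formerly obese-HFD livers, against 18.5 to 75.4 (median 50.3) in formerly obese livers, and was lower by 1.05 (exact permutation *P*=0.0281, passed in 4 of 12 fits). *Acot4* was lower by 0.64 (exact permutation *P*=0.0108, passed in 8 of 12 fits; -0.73 at its other probe set), whereas their relatives *Acot1* and *Acot2* differed by -0.26 and -0.06. The signals of such close copies may mix on an array.

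None of 24 genes of lipid uptake and lipid droplets passed in the 12 livers. *Plin2*, the main droplet coat of hepatocytes, had a signal of 363 to 575 in formerly obese-HFD livers, against 408 to 565 in formerly obese livers and differed by -0.25 on the log2 scale (exact permutation *P*=0.0758). Liver 6 had the highest *Plin2*, and without it the difference was -0.34 and met the criteria (adjusted *P*=0.504). *Cd36*, *Cidec* and *Pparg*, genes that rise in fatty liver, differed by -0.35, 0.11 and -0.48 with exact permutation *P* of 0.498, 0.881 and 0.346. Among 24 genes of bile acid synthesis and transport only *Klb*, the co-receptor of FGF15 and FGF21, passed. It ranged from 57.5 to 96.0 (median 67.0) in formerly obese-HFD livers, against 88.5 to 153 (median 111) in formerly obese livers, and every formerly obese-HFD liver lay below the formerly obese median (log2 -0.65, SE 0.163, exact permutation *P*=0.0108). *Cyp7a1*, the rate-limiting enzyme of bile acid synthesis, differed by 0.28 (exact permutation *P*=0.284).

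The lowest ratio of averages among the named genes was that of the leptin receptor. *Lepr* had a signal of 15.0 to 30.4 (median 16.5) in formerly obese-HFD livers, against 34.6 to 104 (median 60.8) in formerly obese livers. The groups did not overlap, and the average was 0.306 of that in formerly obese livers (log2 -1.68, SE 0.243, exact permutation *P*=0.00216, adjusted *P*=0.0734). Its neighbour *Leprot* averaged 68.4 in formerly obese-HFD livers and 77.4 in formerly obese livers and did not pass (log2 -0.20, SE 0.127). The probe set does not separate the long from the short and soluble receptor forms. *Rgs16*, a regulator of G protein signalling that is known to follow glucose and feeding in liver, ranged from 193 to 797 (median 472) in formerly obese-HFD livers, against 910.2 to 1756 (median 1583) in formerly obese livers, also without overlap (log2 -1.65, SE 0.291, exact permutation *P*=0.00216, adjusted *P*=0.154; -1.41 without liver 6, which was the lowest). *Klf10*, a glucose-induced transcription factor, ranged from 41.6 to 71.8 (median 55.4) in formerly obese-HFD livers, against 65.5 to 156 (median 82.0) in formerly obese livers and was lower by 0.71 (SE 0.199, exact permutation *P*=0.00433). Of 17 liver-secreted hormones, binding proteins and receptors *Lect2*, a hepatokine, passed besides *Lepr*, with 1143 to 1315 (median 1224) in formerly obese-HFD livers, against 882 to 1117 (median 984) in formerly obese livers and no overlap (log2 0.31, SE 0.0813, exact permutation *P*=0.00216). *Fgf21* differed by -0.52 with wide scatter (22.9 to 170 in formerly obese-HFD livers, against 45.2 to 342 in formerly obese livers, exact permutation *P*=0.446). *Sult1c2*, a sulfotransferase among the 12 lower genes furthest from a ratio of 1, ranged from 18.1 to 85.3 (median 36.6) in formerly obese-HFD livers, against 52.5 to 107 (median 82.9) in formerly obese livers, with 1 formerly obese-HFD liver inside the other group (log2 -1.16, exact permutation *P*=0.013).

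**Figure D2:**
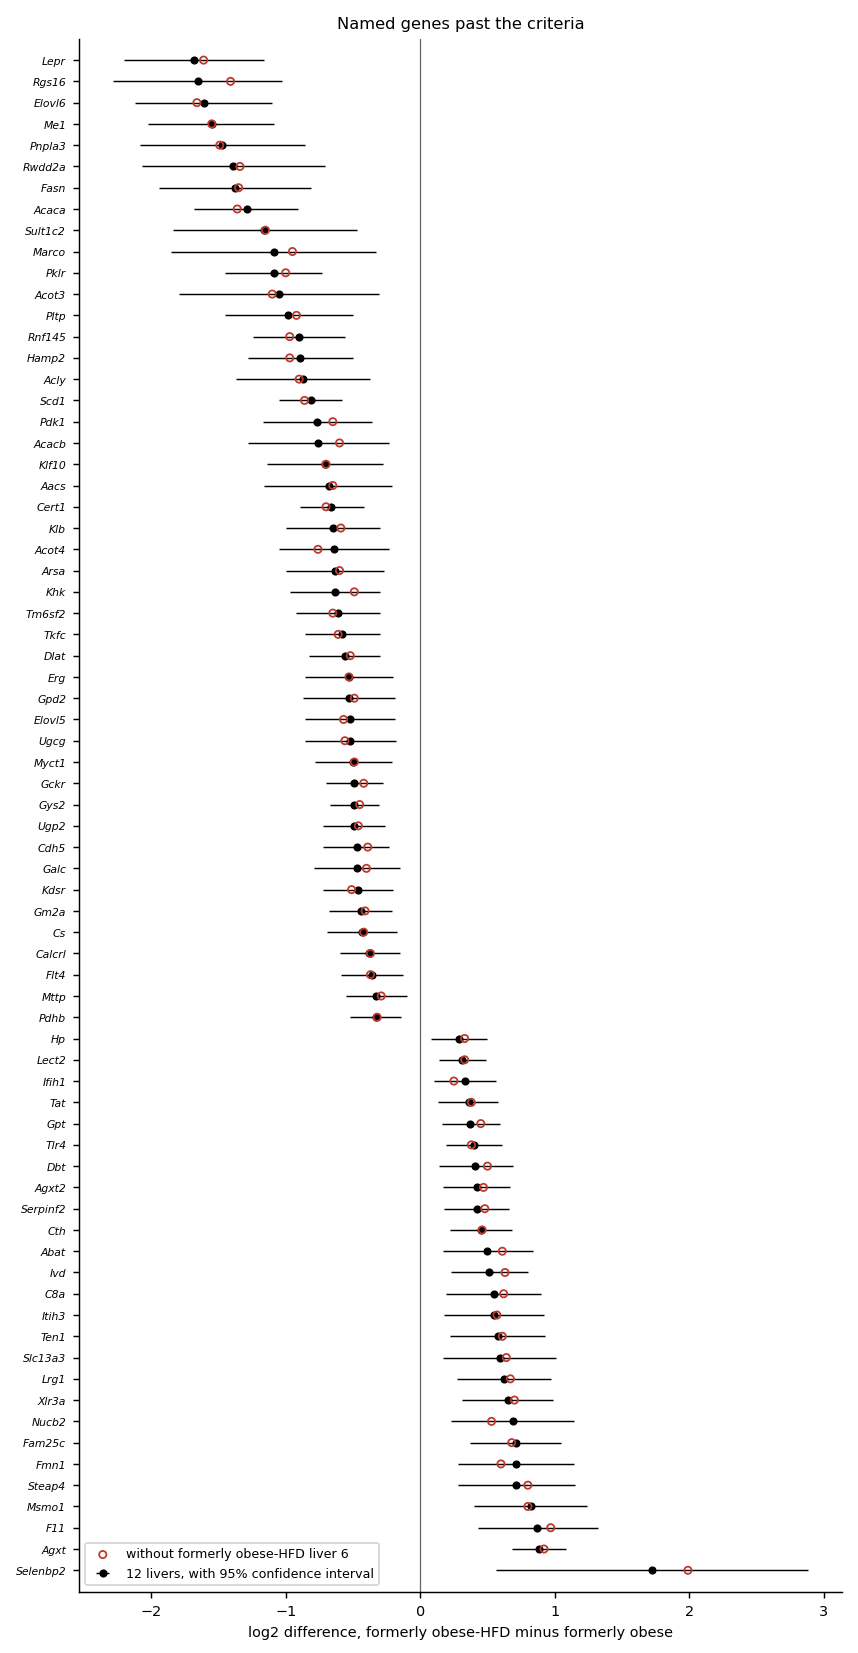
Log2 difference between formerly obese-HFD and formerly obese livers of the named genes past the criteria, with the 95% confidence interval of the fit on 12 livers (filled points) and the difference without formerly obese-HFD liver 6 (open points). All open points lie on the same side of 0 as the filled ones, and *Lepr* (-1.68) and *Selenbp2* (1.72) mark the ends.

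The smallest adjusted *P* was that of an amino acid gene, which was higher. *Agxt*, the peroxisomal alanine-glyoxylate aminotransferase that detoxifies glyoxylate, had a signal of 310.0 to 377 (median 371) in formerly obese-HFD livers, against 165 to 216 (median 208) in formerly obese livers. The groups lay far apart, with 5 of 6 formerly obese-HFD livers between 363 and 377, and *Agxt* was higher by 0.88 on the log2 scale (SE 0.0937, exact permutation *P*=0.00216, adjusted *P*=0.0141). Of 24 measured genes of the urea cycle and amino acid catabolism 3 were higher and none lower past the criteria (0.490% and 1.17% of all single-symbol probe sets with an average above 8), with a median of 0.08. Alanine aminotransferase *Gpt* ranged from 197 to 282 (median 265) in formerly obese-HFD livers, against 180.4 to 232 (median 191) in formerly obese livers, with liver 6 lowest (log2 0.37, SE 0.101, exact permutation *P*=0.00866; 0.45 without it). Tyrosine aminotransferase *Tat* ranged from 1780.4 to 2551 (median 2235) in formerly obese-HFD livers, against 1446 to 2010 (median 1715) in formerly obese livers and was higher by 0.36 (exact permutation *P*=0.00649, passed in 7 of 12 fits with a liver left out). The urea cycle enzymes *Cps1*, *Otc*, *Asl* and *Arg1* differed by 0.03, 0.12, -0.01 and -0.01 and did not pass. *Cth*, which makes cysteine from cystathionine, was the only one of 17 serine, methionine and one-carbon genes past the criteria, with 794 to 1001 (median 916) in formerly obese-HFD livers, against 512 to 825 (median 675) in formerly obese livers (log2 0.45, SE 0.108, exact permutation *P*=0.00433).

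Some mitochondrial enzymes of amino acid breakdown outside the list were picked from the 76 higher single-symbol probe sets after their values were seen. They were not tested as a set. *Ivd*, isovaleryl-CoA dehydrogenase of leucine breakdown, ranged from 162 to 294 (median 260.5) in formerly obese-HFD livers, against 154 to 186 (median 174) in formerly obese livers, and all but liver 6 lay above the other group (log2 0.51, exact permutation *P*=0.0108; 0.63 and adjusted *P*=0.0756 without liver 6). *Dbt*, a subunit of the branched-chain ketoacid dehydrogenase, was higher by 0.41 (exact permutation *P*=0.013, passed in 6 of 12 fits; 0.50 without liver 6), *Abat*, a GABA aminotransferase, by 0.50 (exact permutation *P*=0.0152, passed in 5 of 12; 0.61 without liver 6), and *Agxt2*, a second alanine-glyoxylate aminotransferase, by 0.42 (exact permutation *P*=0.0108). The other branched-chain subunits *Bckdha* and *Bckdhb* differed by -0.08 and 0.10.

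**Figure D3:**
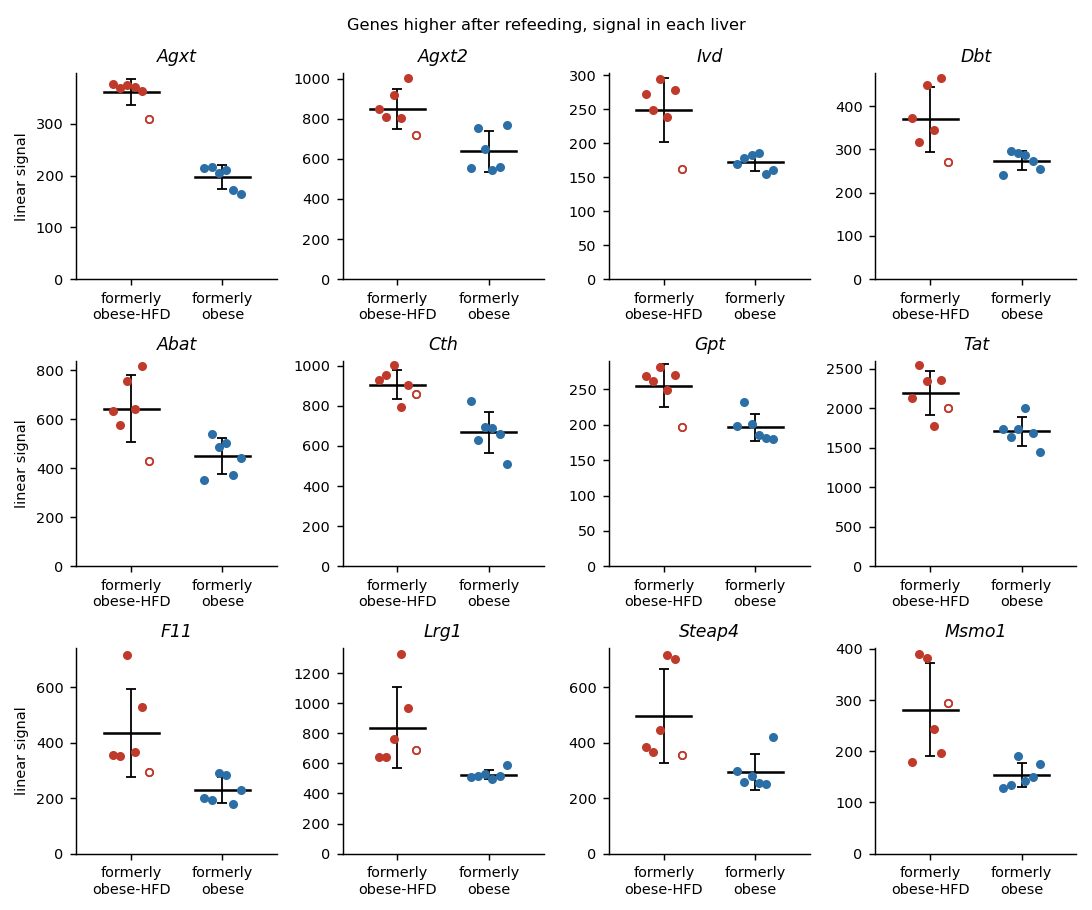
Linear signal in each liver of 12 genes that were higher past the criteria (points; open points are formerly obese-HFD liver 6), with the mean (bar) and SD (whiskers) of 6 livers per group and axes that start at 0. *Agxt*, *F11* and *Lrg1* show no overlap, and liver 6 lies at or near the bottom of its group for *Agxt*, *Ivd*, *Dbt*, *Abat* and *Gpt*.

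Some plasma proteins of the acute phase and of coagulation were higher. Of 26 measured acute phase genes 3 were higher and none lower past the criteria (0.490% and 1.17% of all single-symbol probe sets with an average above 8), 24 were positive and the median was 0.26, which fell to 0.089 without formerly obese-HFD liver 4 and was 0.355 without liver 6. *Steap4*, a metalloreductase induced in inflammation, ranged from 356 to 717 (median 416) in formerly obese-HFD livers, against 249.7 to 419 (median 269) in formerly obese livers (log2 0.71, SE 0.202, exact permutation *P*=0.00866). *Itih3*, an inter-alpha-trypsin inhibitor chain, ranged from 838 to 2044 (median 1179) in formerly obese-HFD livers, against 769 to 862 (median 842) in formerly obese livers and was higher by 0.55 (exact permutation *P*=0.0108, passed in 4 of 12 fits), and haptoglobin *Hp* by 0.29 (exact permutation *P*=0.00433, passed in 3 of 12 fits). The most inducible members rested on single livers. *Orm3* had 239.7 in formerly obese-HFD liver 4 and 10.2 to 41.6 in the others of its group, against 5.42 to 16.7 in formerly obese livers, and did not pass (exact permutation *P*=0.0584). Lipocalin *Lcn2* reached 756 in formerly obese-HFD liver 4 and 361 in liver 6 but 40.8 to 113 in the others, against 32.0 to 80.2 in formerly obese livers (exact permutation *P*=0.106).

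*Lrg1*, a secreted glycoprotein of the acute phase, ranged from 639.6 to 1326 (median 724) in formerly obese-HFD livers, against 494 to 588 (median 515) in formerly obese livers, with no overlap (log2 0.62, SE 0.162, exact permutation *P*=0.00216). Coagulation factor XI, *F11*, ranged from 296 to 715 (median 359) in formerly obese-HFD livers, against 179.5 to 289.6 (median 216) in formerly obese livers, so that even its lowest formerly obese-HFD liver was above the other group (log2 0.87, SE 0.206, exact permutation *P*=0.00216, adjusted *P*=0.452). The complement component *C8a* (log2 0.55, exact permutation *P*=0.0152, passed in 7 of 12 fits) and the plasmin inhibitor *Serpinf2* (log2 0.42, exact permutation *P*=0.00433), both named after their values were seen, were higher as well. Fibrinogen genes *Fga*, *Fgb* and *Fgg* differed by 0.08, 0.01 and -0.01.

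Few inflammatory signalling genes passed the criteria. Of 28 TNF, IL1 and NF-kappa-B genes 17 were positive and 11 negative, with a median of 0.07. *Tlr4*, the receptor for lipopolysaccharide, alone passed as higher (0.490% of all single-symbol probe sets with an average above 8). It had 15.9 to 19.1 (median 17.6) in formerly obese-HFD livers, against 10.7 to 14.9 (median 13.7) in formerly obese livers and no overlap (log2 0.40, SE 0.0968, exact permutation *P*=0.00216). *Cxcl1*, *Vcam1* and *Bcl3* differed by 1.21, 0.41 and 0.39 and did not pass. *Il1b*, an inflammatory cytokine, reached at most 34.6 in formerly obese-HFD livers and 25.7 in formerly obese livers (log2 0.13, exact permutation *P*=0.71), the chemokine *Ccl5* ranged from 70.8 to 248 in formerly obese-HFD livers, against 74.9 to 142 in formerly obese livers (log2 0.44, exact permutation *P*=0.165) and the interleukin 2 receptor subunit *Il2rb* from 6.59 to 12.4 in formerly obese-HFD livers, against 9.29 to 11.9 in formerly obese livers (log2 -0.12, exact permutation *P*=0.442), and their groups overlapped. Of 35 interferon-stimulated genes the RNA sensor *Ifih1* passed (log2 0.33, exact permutation *P*=0.00649, in 5 of 12 fits with a liver left out and not without liver 6, where the adjusted *P*=0.595). All 11 measured genes of MHC class II presentation were positive, with a median of 0.22, but none passed. *H2-Ab1* ranged from 199.6 to 536 in formerly obese-HFD livers, against 149 to 289.8 in formerly obese livers and had a log2 difference of 0.64 (exact permutation *P*=0.0563), with formerly obese-HFD livers 4 and 6 highest.

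The Kupffer cell list pointed down. Of 14 markers of Kupffer cells, the resident macrophages of the liver, and of macrophages in general 13 were negative (52.6% of probe sets with an average above 8). The median was -0.14 (-0.097 without formerly obese-HFD liver 6, -0.256 without liver 4). Among general markers *Csf1r*, *Cd68*, *C1qa* and *C1qb* differed by -0.03, -0.02, -0.01 and -0.08, *Adgre1* by -0.31 and *Mpeg1* by 0.19. As lower, 1 of the 14 passed (1.17% of single-symbol probe sets with an average above 8). *Marco*, a scavenger receptor, ranged from 12.8 to 40.7 (median 20.5) in formerly obese-HFD livers, against 29.3 to 122 (median 33.8) in formerly obese livers, and 5 of 6 formerly obese-HFD livers lay below the whole of the other group (log2 -1.09, SE 0.353, exact permutation *P*=0.0108). It passed in 4 of 12 fits with a liver left out, and not without formerly obese-HFD liver 6 (log2 -0.95, adjusted *P*=0.634). *Timd4* (13.4 to 72.3 in formerly obese-HFD livers, against 50.8 to 142 in formerly obese livers, log2 -0.77, exact permutation *P*=0.0736) and *Clec4f* (log2 -0.20, exact permutation *P*=0.452), which define Kupffer cells, did not pass. The summed signal of the list was 1053 to 1762 in formerly obese-HFD livers, against 1071 to 1952 in formerly obese livers, so the groups overlapped almost wholly.

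Of 13 iron genes 1 was lower past the criteria and none higher (1.17% and 0.490% of all single-symbol probe sets with an average above 8). This was *Hamp2*, a paralog of the iron hormone hepcidin. It ranged from 207 to 466 (median 341) in formerly obese-HFD livers, against 501 to 680.3 (median 623) in formerly obese livers, with no overlap (log2 -0.89, SE 0.182, exact permutation *P*=0.00216, adjusted *P*=0.324). Hepcidin itself, *Hamp*, averaged 5060.2 in formerly obese-HFD livers and 5242 in formerly obese livers and differed by -0.06 (exact permutation *P*=0.481). The median deviation of the 13 genes from their averages lay between -0.22 and -0.02 in formerly obese-HFD livers and between 0.03 and 0.08 in formerly obese livers. The log2 difference was negative for 10 of the 13 (52.6% of single-symbol probe sets with an average above 8), with a median of -0.15. The transferrin receptor *Tfrc* and ferroportin *Slc40a1* differed by -0.37 and -0.28 (exact permutation *P* of 0.0346 and 0.0411) and did not pass.

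*Selenbp2*, a selenium-binding protein of male-biased expression in mouse liver, was the only gene past the criteria that was higher by a ratio above 2. It had 3187 and 2880.3 in formerly obese-HFD livers 3 and 5 and 409 to 918 in the other 4, against 146 to 606 in formerly obese livers, so the groups overlapped at the lower end (ratio 3.97, log2 1.72, SE 0.538, exact permutation *P*=0.0152, passed in 6 of 12 fits). Its paralog *Selenbp1* differed by -0.15. Formerly obese-HFD livers 3 and 5 also carried the highest *Ugt2b38* (393 and 406, against 13.3 to 164 in formerly obese livers) and *Moxd1* (589 and 78.7, against 4.73 to 6.92 in formerly obese livers) and the lowest *Cyp2c38* (6.73 and 56.5, against 194 to 851 in formerly obese livers), genes picked after their values were seen. The male-biased *Hsd3b5* was at 5.17 in liver 6, 100.1 to 251 in the other formerly obese-HFD livers and 16.3 to 211 in formerly obese livers. None of 19 growth hormone, STAT5 and sex-biased genes and none of 25 cytochrome P450 and xenobiotic receptor genes passed in the 12 livers at its brightest probe set. *Cish*, a feedback inhibitor of cytokine signalling that growth hormone induces, ranged from 16.9 to 96.7 (median 33.3) in formerly obese-HFD livers, against 29.1 to 139 (median 85.0) in formerly obese livers, and differed by -1.07 at that probe set (exact permutation *P*=0.0519, passed in 2 of 12 fits with a liver left out), while its other, dimmer probe set was lower past the criteria (log2 -0.54, SE 0.176). *Cyp17a1*, a steroid hydroxylase, ranged from 21.3 to 179 (median 44.9) in formerly obese-HFD livers, against 63.6 to 179 (median 104) in formerly obese livers, with liver 6 highest in its group (log2 -1.23, exact permutation *P*=0.0541; -1.61, past the criteria, without liver 6). *Cyp1a2*, which oxidises caffeine and oestrogens, had 2410.3 to 3295 in 5 formerly obese-HFD livers and 920.3 in liver 6, against 1489 to 2024 in formerly obese livers (exact permutation *P*=0.0974), and without liver 6 it was higher by 0.84 (adjusted *P*=0.0756).

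Liver 6 also had high signals of cell division genes. *Top2a* and *Mki67*, which mark cycling cells, were at 45.0 and 54.7 in liver 6, and at 6.02 to 12.0 and 8.56 to 15.8 in the other formerly obese-HFD livers, against 5.19 to 9.97 and 11.3 to 17.1 in formerly obese livers. *Ly6d* and *Sprr1a*, picked after their values were seen, reached 961 and 725 there, against at most 84.0 and 42.8 in any other liver. None of 32 cell cycle genes passed the criteria, none had a limma *P* below 0.05, and the median of the list was 0.10 with liver 6 and -0.14 without it. Liver 4 stood out by acute phase genes, with *Saa2* at 2579.7 and *Cxcl1* at 311, against 99.4 to 471 and 12.8 to 22.2 in formerly obese livers.

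**Figure D4:**
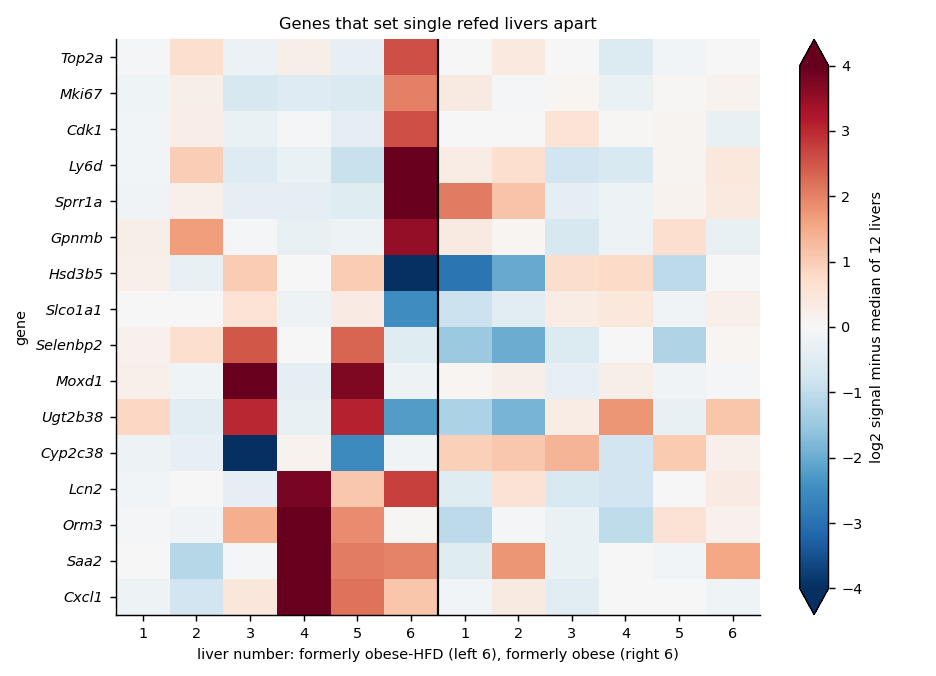
Log2 signal minus the median of the 12 livers (colour, limited to -4 and 4) for 16 genes chosen after their values were seen (rows) in formerly obese-HFD livers 1 to 6 (left) and formerly obese livers 1 to 6 (right). Liver 6 of the formerly obese-HFD group is high in *Top2a*, *Ly6d* and *Sprr1a* and low in *Hsd3b5*, livers 3 and 5 are high in *Selenbp2* and *Moxd1*, and liver 4 is high in *Saa2* and *Cxcl1*.

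Other programmes gave no or single calls. None of 19 clock genes passed, although 15 were negative with a median of -0.19: *Nr1d1*, the repressor REV-ERB-alpha, had 84.1 to 257 (median 174) in formerly obese-HFD livers, against 122 to 381 (median 315) in formerly obese livers (log2 -0.71, exact permutation *P*=0.0714). No source used here gives the time of day at which livers were taken, and its part was not tested. In the 12 livers none of 29 genes of oxidative phosphorylation passed (median -0.05), nor of 21 of the unfolded protein and integrated stress response (median 0.05), 9 heat shock proteins (median 0.02), 26 of conjugation and NRF2 (median -0.07) or 26 collagens and fibrosis regulators (median 0.08; -0.01 without liver 6, which was the highest). Of the markers of other cell types, those of sinusoidal endothelium had a median of -0.17 (summed signal 828 to 1396 in formerly obese-HFD livers, against 1127 to 1436 in formerly obese livers), stellate cells of 0.10 (-0.04 without liver 6) and cholangiocytes of 0.27 (0.16 without liver 6), and none passed. The summed signal of the cholangiocyte markers was 63.1 to 227 in formerly obese-HFD livers, highest in liver 6, against 58.7 to 82.7 in formerly obese livers. Macrophages that enter the liver had a median of 0.21 (0.07 without liver 6), and the part of other cell types in the results above was not tested.

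Some endothelial genes outside the lists were among the 181 lower probe sets. They were picked from these after their values were seen and were not tested as a set. *Cdh5*, the cadherin of endothelial junctions, ranged from 102 to 155 (median 137) in formerly obese-HFD livers, against 148 to 209 (median 188) in formerly obese livers, and every formerly obese-HFD liver lay below the formerly obese median (log2 -0.47, SE 0.114, exact permutation *P*=0.00433). *Myct1*, an endothelial target of MYC, ranged from 9.8 to 17.0 (median 14.5) in formerly obese-HFD livers, against 17.1 to 24.4 (median 19.3) in formerly obese livers, and its groups were separate (log2 -0.50, SE 0.132, exact permutation *P*=0.00216). The transcription factor *Erg* was lower by 0.53 (exact permutation *P*=0.013, passed in 10 of 12 fits), the receptor *Calcrl* by 0.38 (exact permutation *P*=0.00649) and the VEGF receptor *Flt4* by 0.36 (exact permutation *P*=0.00649, passed in 8 of 12). None of the 10 listed sinusoidal markers passed, though 9 were negative. Their log2 differences lay between -0.43 (*Dnase1l3*) and 0.07 (*Lyve1*), with the general endothelial marker *Pecam1* at -0.02.

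Of all 23521 single-symbol probe sets 257 met the criteria in the 12 livers, 354 without formerly obese-HFD liver 6 and 184 in both, so calls changed well beyond the lists. Without liver 6, 19 list members met the criteria that did not in the 12 livers, and 6 no longer did (*Aacs*, *Acacb*, *Acot3*, *Ifih1*, *Marco* and *Mttp*). Among those gained were *Cyp7b1*, an oxysterol hydroxylase of bile acid synthesis (log2 0.91 with liver 6 and 1.33 without it), *Amacr* (0.23 and 0.33), the amino acid enzymes *Prodh* (0.19 and 0.48) and *Aass* (0.23 and 0.31), and *Saa4* (0.65 and 0.93) and *Il6ra* (0.21 and 0.43) of the acute phase list. *Nfe2l2*, which encodes NRF2, had a difference of -0.31 with and -0.42 without liver 6, its target *Gclc* of -0.27 and -0.37, *Tgfb1* of -0.25 and -0.33, *Rrm2* of -0.50 and -0.98 and *Cd9* of -0.62 and -0.81. *Hspb1*, *Igfbp4*, *Enho*, *Pygl* and *Cela1* were gained as well, besides *Plin2*, *Cyp17a1* and *Cyp1a2* given above. Their adjusted *P* without liver 6 lay between 0.308 and 0.577, other than that of *Cyp1a2*.

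**Figure D5:**
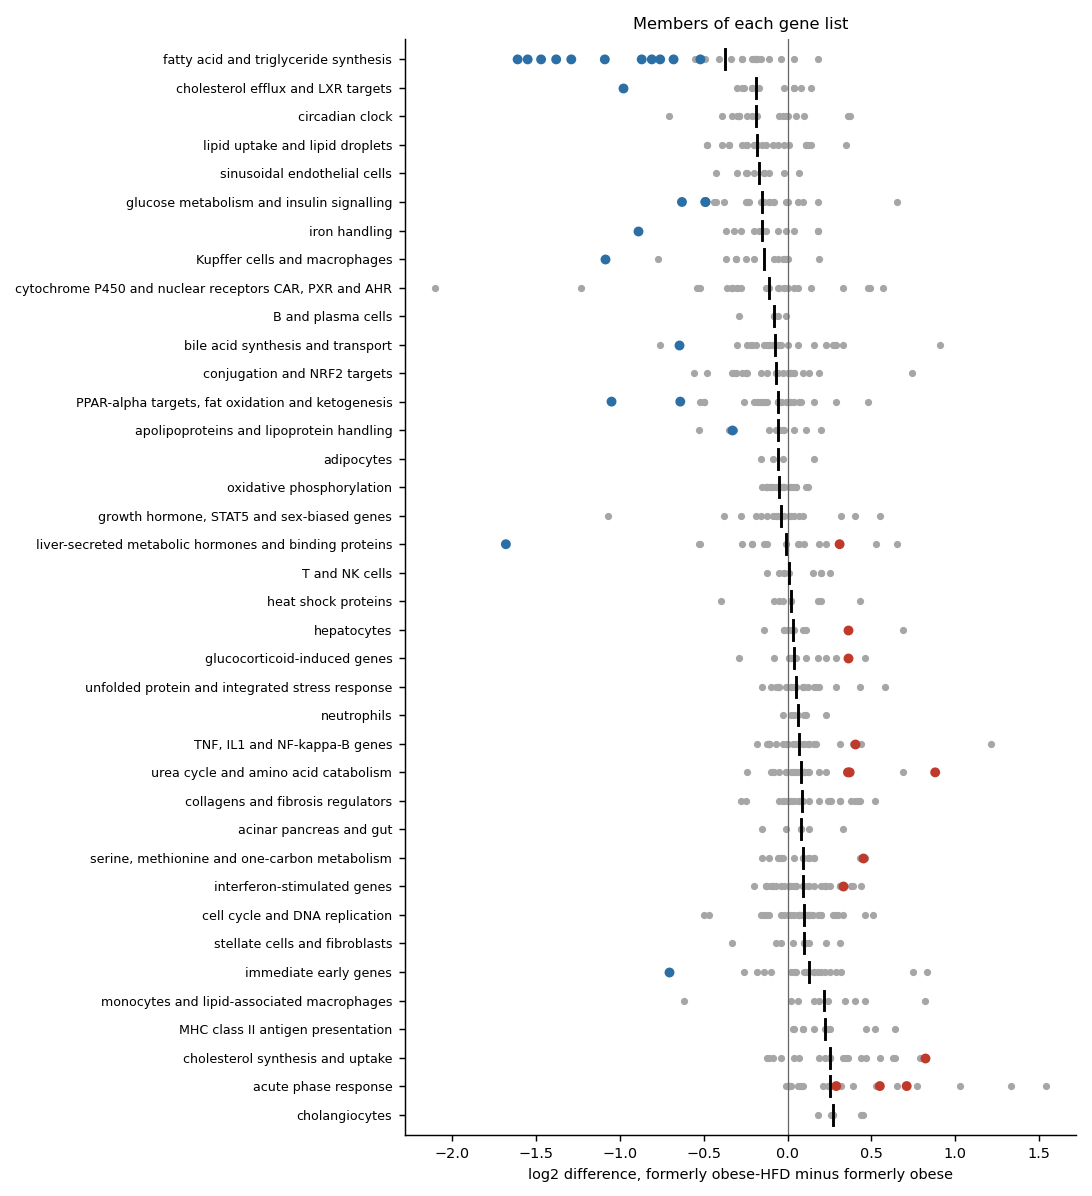
Log2 difference, formerly obese-HFD minus formerly obese, of each measured member (points) of the 38 gene lists with measured members, ordered by the list median (black bar); coloured points passed the criteria (blue lower, red higher). Fatty acid and triglyceride synthesis has the lowest median (-0.37) and holds 11 of the lower calls, and acute phase response, cholesterol synthesis and cholangiocytes lie at the other end.

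The named higher genes that belong to no list were diverse. *Fam25c*, of no assigned role here, ranged from 190.3 to 278 (median 255) in formerly obese-HFD livers, against 97.8 to 185 (median 157) in formerly obese livers, with no overlap (log2 0.71, SE 0.156, exact permutation *P*=0.00216). The X-linked *Xlr3a* ranged from 16.9 to 31.1 (median 21.6) in formerly obese-HFD livers, against 12.7 to 16.3 (median 13.8) in formerly obese livers and was higher by 0.65 (exact permutation *P*=0.00216), whereas its relatives *Xlr3b* and *Xlr3c* differed by 0.02 and 0.30 and did not pass. *Fmn1*, a formin, was higher by 0.71 (exact permutation *P*=0.00433) at 1 probe set and differed by 0.07 (SE 0.130) at the other. *Nucb2*, the precursor of nesfatin, was higher by 0.69 (exact permutation *P*=0.013, passed in 7 of 12 fits), the dicarboxylate transporter *Slc13a3* by 0.59 (exact permutation *P*=0.026, passed in 3 of 12) and *Ten1*, of the telomere-capping CST complex, by 0.58 (exact permutation *P*=0.00649, passed in 10 of 12).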

How the data were processed

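Liver RNA of 30 male mice was hybridised to Mouse Gene 2.0 ST arrays (Affymetrix), and the 12 arrays of the 2 groups were used. The log2 values were deposited by the authors after robust multi-array averaging (RMA) in Affymetrix Expression Console 1.4.1.46, which corrects background, normalises between arrays and summarises probes; the number of arrays limits their precision. Of 41345 probe sets 23521 carry a single gene symbol, 1820 several and 16004 none in the platform annotation. The mice are separate samples whose labels give no cage or litter; the study calculated the food intake of refed mice per pair of mice, so some may have shared a cage, and *P* values measure the spread between these mice.

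All probe sets entered 1 limma fit (limma 3.58.1, R 4.3.3) of formerly obese-HFD minus formerly obese log2 values, with Benjamini-Hochberg adjustment over all of them. The criteria (*P* below 0.01, ratio above 1.2, average above 8) and the FDR of 10% follow the methods of the study. Single values were also compared by two-sided exact permutation over all arrangements of the 12 livers (Python 3.11.15, NumPy 2.4.6, pandas 2.3.3, SciPy 1.17.1; Matplotlib 3.10.9 for plots). The fit was tested on simulated data. Genes named were the 12 with the largest ratio in each direction (leaving out predicted genes, clone names, small RNAs and olfactory or vomeronasal receptors), list members past the criteria or, with none, up to 4 with the smallest *P*, and liver genes of the study text; others are stated as named after their values were seen, and list members that did not pass were added for context. A gene of a list is its brightest single-symbol probe set. The 39 lists (742 genes, 667 measured) and the members were chosen with earlier results of these data known. Alternatives were all 30 livers, other variance priors, array weights, centring, thresholds, the replicate number as a block and leaving out each liver. Promoter windows came from RefSeq (GRCm38.p6).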

Additional observations from a re-analysis of the deposited data

Results flagged for a closer look

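In 190 sets of 6 livers (95 named genes in each group) the highest or lowest liver was tested for its distance from the others as a share of the group's range by Dixon's criterion at 95%, and 10 sets passed where 9.5 are due by chance. In 5 of them the distant liver was formerly obese-HFD liver 6. It was lowest for *Agxt* (310.0 against 363 to 377 in the others, share 0.804) and *Gpt* (197 against 249.5 to 282, share 0.659), and highest for *Col4a2*, a basement membrane collagen (15.6 against 11.2 to 12.2, share 0.749), *Kif11*, a mitotic kinesin (23.4 against 7.48 to 10.4, share 0.713), and *Top2a* (45.0 against 6.02 to 12.0, share 0.656). Formerly obese-HFD liver 4 was highest for *H2-Eb1*, an MHC class II chain (106 against 42.3 to 58.1, share 0.655).

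Among formerly obese livers, liver 2 was lowest for *Nr1d1* (122 against 251 to 381, share 0.633) and highest for *Srebf1* (307 against 173 to 207, share 0.688). Liver 6 of that group was highest for *Gckr* (708 against 578 to 613, share 0.716) and *Steap4* (419 against 249.7 to 298, share 0.656).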

How the results depend on the processing

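At a ratio above 1.5 in place of 1.2, 196 probe sets passed the criteria, 19 single-symbol ones higher and 44 lower. A fit on single-symbol probe sets alone called 313 of them (97 higher and 216 lower, against 76 and 181 of the same probe sets in the fit on all) and 14 lower at FDR 10%. With all 30 livers in 1 fit 41 probe sets passed FDR 10%, of which 28 single-symbol ones were lower and 6 higher. At FDR 5% 1 passed and at FDR 20% 23. Leaving out each liver gave 395 to 602 probe sets past the criteria (66 to 150 single-symbol ones higher, 137 to 217 lower) and 1 to 17 at FDR 10% (0 to 7 lower, 1 to 3 higher). The cause of these shifts was not tested.

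Groups share replicate numbers, but livers of the same number deviated together only weakly (*r* of -0.0292 to 0.0875), and they were not treated as pairs. A weak correlation cannot show that livers of the same number had nothing in common. With the replicate number as a block 2 probe sets passed FDR 10%, 1 single-symbol one lower, and *Acacb*, *Acot3*, *Acot4*, *Hp*, *Mttp*, *Selenbp2*, *Steap4* and *Tat* no longer met the criteria, whereas *Srebf1* did. Of the 46 genes past the criteria that the rule named, none changed direction under the alternatives run for them, and 31 passed whichever liver was left out. The other 15 did not: *Aacs*, *Acacb*, *Acot3*, *Acot4*, *Elovl5*, *Hp*, *Ifih1*, *Itih3*, *Marco*, *Mttp*, *Nucb2*, *Selenbp2*, *Slc13a3*, *Tat* and *Ten1*, all with a *P* at or above 0.01 in at least 1 such fit. Most of them, 13, were lost without formerly obese-HFD liver 5. Of 26 genes past the criteria named after their values were seen, 18 passed whichever liver was left out, and *Abat*, *C8a*, *Dbt*, *Erg*, *Flt4*, *Galc*, *Gpd2* and *Ugcg* did not. Centring each array on its median ended the calls of *Hp*, *Ifih1* and *Slc13a3*.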
